A study of Drosophila melanogaster with 26 samples.

Results

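The transcripts described here are those measured in *dERR* mutant larvae and in control larvae after both had been held in hypoxia. Of the 26 arrays of the series, 8 make up this comparison: 3 of *dERR* mutants and 5 of *w1118* animals, each array from a separate pool of whole late-L3 larvae, the last larval stage. All probe sets other than the array's control probe sets were kept, 18769 of them. *dERR* mutants carried the alleles *dERR1* and *dERR2* over each other. *w1118* animals carried no *dERR* mutation, and the sources used here do not say whether the 2 genotypes were brought into 1 genetic background. Larvae were staged by a partly cleared gut to between -10 and -4 hr relative to pupariation and were kept for 6 hr at 25 °C, either in air (normoxia, N) or in 4% O2 (hypoxia, H). For comparison, the same genotypes in normoxia (3 arrays each) were used, as were *sima* mutants, which carry the *sima07607* allele, and *dERR,sima* double-mutants, which carry both lesions, in hypoxia (3 arrays each). *sima* and *dERR,sima* larvae in normoxia (3 arrays each) entered the model fit, and the *sima* normoxia mean is given for *CG7737*.

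dERR is the only *Drosophila* member of the estrogen-related receptor family, orphan nuclear receptors that bind DNA and control genes of energy metabolism. In fly larvae it is known for switching on glycolysis and related sugar pathways during growth, a program that lets tissues take carbon from sugar quickly. *sima* encodes the oxygen-regulated alpha subunit of the hypoxia-inducible factor (dHIF), which is destroyed when oxygen is plentiful and drives many hypoxic genes when it is scarce. The comparison asks which transcripts of hypoxic larvae differ when dERR is missing.

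Values are RMA signals on the log2 scale and a difference is *dERR* minus *w1118* ± the standard error of the limma fit. A probe set was called when the difference reached 1.5-fold and its adjusted p was below 0.01 over all probe sets. Where 1 probe set stands for each gene, it is the one with the highest mean signal. The number of arrays limits the precision, and the median SD among replicates was 0.21 in *w1118* hypoxia and 0.19 in *dERR* hypoxia.

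The 5 control arrays were not alike. *w1118* hypoxia replicates 2 and 3 had a mean absolute difference of 0.16 and replicates 4 and 5 one of 0.25, while all other pairs of *w1118* hypoxia arrays differed by 0.35 to 0.45. Replicate 1 alone was nearer to the 3 *dERR* hypoxia arrays, at 0.27 to 0.33, than to any other control, and the other 4 lay 0.38 to 0.52 from them. *dERR* hypoxia arrays differed by 0.23 to 0.31 among themselves. Tissue markers varied too. The mean signal of 15 muscle genes was 10.61 in *w1118* replicate 1, 9.39 to 9.54 in replicates 2 to 5 and 10.56 to 10.98 in *dERR* mutants. The mean of 29 midgut digestion genes was 9.90 in *w1118* replicate 1, 9.19 to 9.75 in replicates 2 to 5 and 10.17 to 10.47 in *dERR* mutants. The mean of 25 testis genes was 7.69 and 7.51 in *w1118* replicates 2 and 3, 5.55 and 5.93 in replicates 4 and 5, 6.77 in replicate 1 and 6.47 to 6.92 in *dERR* mutants. The larval markers of fat body, salivary glands and muscle were abundant in both groups, with 7 fat body genes averaging 10.84 to 11.17 in *w1118* animals and 11.10 to 11.31 in *dERR* mutants. In whole larvae, fewer cells of a type and less RNA per cell cannot be told apart. The calls were therefore repeated without *w1118* replicate 1 and with the muscle, midgut and testis means as covariates. Of 123 called genes named here besides *ERR*, 3 lost their call without replicate 1 and 84 with the covariates. When the 8 compared arrays were fitted alone 76 lost it, and without *dERR* hypoxia replicate 3, 48 did. Since the midgut mean does not overlap between the genotypes and the lists for these means are themselves tested, the covariates take up part of the genotype difference by construction, and a call lost with them does not show what the change came from.

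**Figure D1:**
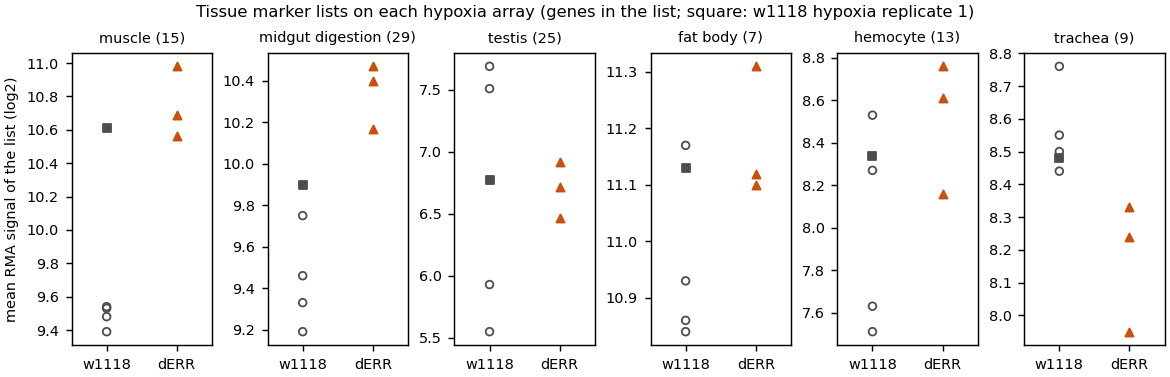
Mean RMA signal (log2, y axis, with its own range in each panel) of 6 tissue marker lists on each hypoxia array; open circles are *w1118* replicates 2 to 5, the filled square is *w1118* replicate 1 and triangles are *dERR* replicates 1 to 3. For the muscle list, *w1118* replicate 1 at 10.61 lies among the *dERR* arrays, at 10.56 to 10.98, and not with the other *w1118* arrays, at 9.39 to 9.54.

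The mutated gene itself, read by 1 probe set, had a low signal. *ERR* was at 5.15, 5.24, 5.29, 5.16 and 5.33 in *w1118* replicates 1 to 5 and at 4.29, 4.13 and 4.62 in *dERR* replicates 1 to 3 in hypoxia. The groups did not overlap, and *ERR* was lower in *dERR* mutants by -0.89 ± 0.13 (adjusted p = 0.000107). In normoxia the difference was -0.33 (adjusted p = 0.14), and in *dERR,sima* against *sima* larvae in hypoxia it was -0.30 (adjusted p = 0.377), so neither of these was called. Where this probe set lies relative to the mutations was not examined, and it therefore checks the genotype only in part. Along chromosome arm 3L, in the gene order of the Release 6 RefSeq annotation, 15 of the 20 genes nearest *ERR* were measured and 3 were called in hypoxia, where 7.38% of all genes on 3L were called. These 3, chosen after their values were seen, were *Uxs*, which encodes UDP-xylose synthase and lies next to *ERR* (-1.23, adjusted p = 3.41e-06), *mthl7*, a methuselah-like receptor gene 2 places away (1.30, adjusted p = 0.000207), and the autophagy gene *Atg18a*, 3 places away (-0.95 ± 0.12, adjusted p = 3.51e-05). *mthl7* was also called higher in *dERR* mutants in normoxia (1.08) and in *dERR,sima* against *sima* larvae (1.60). *Uxs* was called lower in normoxia (-0.91, adjusted p = 0.000692) but not in *dERR,sima* against *sima* larvae (-0.39, adjusted p = 0.213).

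In hypoxia 1157 probe sets were called, 6.16% of those tested. Of these, 450 were higher in *dERR* mutants (2.4% of all tested) and 707 were lower (3.77%). The higher set held 395 named genes, had a median difference of 1.28 and contained 106 probe sets that differed at least 4-fold. The lower set held 585 named genes, had a median of -0.83 and contained 42 such probe sets. Over all probe sets the median difference was 0.01. The values of the 2 groups did not overlap for 1080 of the 1157 called probe sets and for 3225 of all 18769 (17.2%). A call on these arrays itself favours separated groups, so this adds no separate support. Without *w1118* replicate 1 the count was 1821, with 1120 of the 1157 among them, and with the tissue means as covariates it was 171, of which 155 were among the 1157. With replicates 2 and 3, and 4 and 5, each averaged to 1 sample it was 537. When only the 8 compared arrays were fitted it was 200, of which 192 were among the 1157. Leaving out other single arrays moved the count most for *w1118* replicate 3 (755) and *dERR* replicates 2 (626) and 3 (526). At 1 probe set per gene, 928 of 11982 genes were called, 7.74%, with 3.16% higher and 4.58% lower. These shares are the background for the counts in each gene list below. The called share was 8.12% on the X chromosome, 7.53% on 2L, 8.57% on 2R, 7.38% on 3L, 7.33% on 3R and 12.3% (8 of 65 genes) on chromosome 4.

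Transcripts of the glycolytic enzymes were lower in *dERR* mutants. Of 11 measured glycolytic genes, 8 were called lower and none higher, with a list median of -1.40, whereas 4.58% of all genes were called lower. The list members called lie between the entry of glucose and enolase, though not every member in that stretch was called. Hexokinase, which phosphorylates glucose, is encoded by *Hex-A*, which fell by 0.94 ± 0.20 (adjusted p = 0.0026). *Pgi*, encoding the isomerase that follows, was at 11.61, 10.98, 10.83, 11.07 and 10.56 in *w1118* animals and 8.90, 8.16 and 7.84 in *dERR* mutants, a difference of -2.71 ± 0.22 (adjusted p = 7.62e-08).

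*Pfk*, encoding the enzyme that commits sugar to glycolysis, was at 9.49, 9.73, 9.32, 10.01 and 9.04 in *w1118* animals and at 7.10, 6.74 and 6.79 in *dERR* mutants. Every *dERR* array lay below every *w1118* array, and the difference of -2.64 ± 0.19 corresponds to 6.24-fold (adjusted p = 1.96e-08). For triose phosphate isomerase, *Tpi* was at 12.62, 11.83, 11.64, 11.48 and 11.39 in *w1118* animals and 9.66, 9.36 and 9.34 in *dERR* mutants, and the difference was -2.34 ± 0.31 (adjusted p = 4.64e-05). In the aldolase gene *Ald1* the difference was -1.88 ± 0.28, and the other probe set of that gene gave -1.53. *Pgk*, the phosphoglycerate kinase gene, differed by -1.81 ± 0.17, the enolase gene *Eno* by -1.40 ± 0.13 and the glyceraldehyde phosphate dehydrogenase gene *Gapdh1* by -0.88 ± 0.18. The 3 members that were not called were *Pglym78* (-0.61 ± 0.16, adjusted p = 0.0113), *Pglym87* (0.17 ± 0.31) and *Hex-C* (0.57 ± 0.45).

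Some sugar genes have no gene name in the platform table and were identified from the study's own lists of regulated transcripts. They were not counted among the list members, since they were listed there for their response. *Gapdh2* was at 12.18, 12.00, 11.96, 12.29 and 11.92 in *w1118* animals and 9.60, 9.62 and 9.65 in *dERR* mutants (-2.45 ± 0.16, adjusted p = 5.11e-09). The pyruvate kinase gene *PyK* differed by -0.95 ± 0.14 (adjusted p = 0.000165). *ImpL3*, encoding lactate dehydrogenase, which regenerates NAD when glycolysis runs without oxygen, was at 11.66, 12.55, 12.53, 12.87 and 12.45 in *w1118* animals and 10.00, 11.35 and 10.41 in *dERR* mutants (-1.83 ± 0.30, adjusted p = 0.000372). *w1118* replicate 1 was the lowest control for *ImpL3* and the highest for *Ald1*, *Tpi*, *Gapdh1* and *Pgm1*.

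Most of the glycolytic calls held when the arrays or the model were changed. Without *w1118* replicate 1, 8 members were again called lower (median -1.30), and with the tissue means as covariates 7 were (median -1.53). *Pgi*, *Pfk*, *Ald1*, *Tpi*, *Pgk*, *Eno* and *Gapdh2* kept their call in each of the 17 alternative settings run on single genes. *Hex-A* lost it with the covariates (-0.84, adjusted p = 0.115), as did *ImpL3* (-1.45, adjusted p = 0.0308). With the 8 compared arrays fitted alone, *Hex-A*, *Gapdh1*, *PyK* and *ImpL3* lost it.

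**Figure D2:**
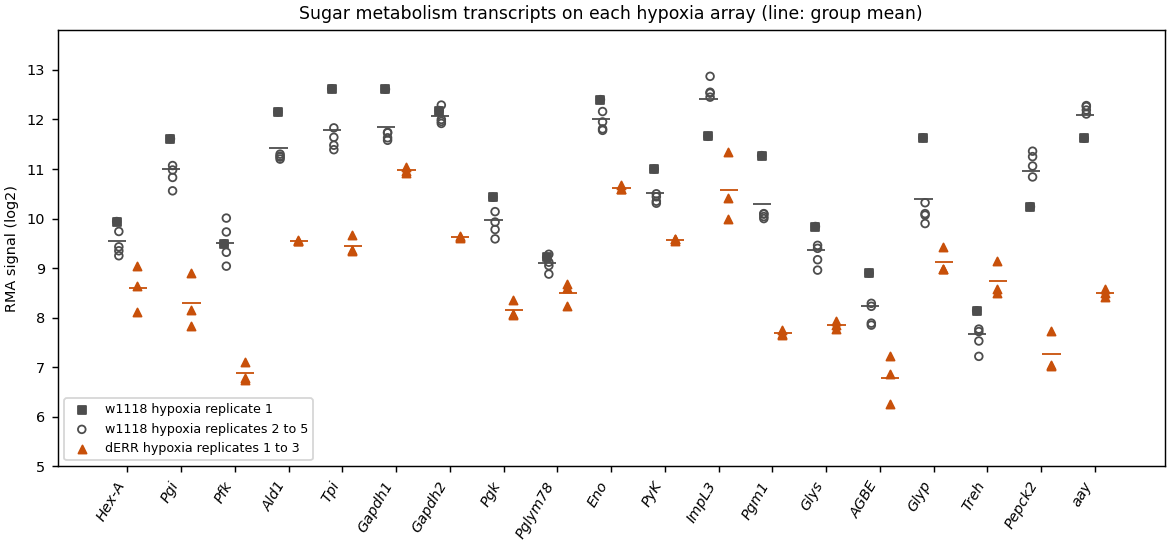
RMA signal (log2, y axis) of 19 transcripts of sugar metabolism on each hypoxia array (*w1118* replicate 1 as a filled square, replicates 2 to 5 as open circles, *dERR* as triangles, group means as lines). *dERR* arrays lie below every *w1118* array for all transcripts shown but *Treh*, where they lie above.

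Several enzymes of glycogen metabolism were lower too. Of 10 measured genes of glycogen and trehalose metabolism, 4 were called lower and 1 higher, against 4.58% and 3.16% of all genes. Phosphoglucomutase links glycogen to glycolysis, and its gene *Pgm1* was at 11.27, 10.10, 10.00, 10.04 and 10.09 in *w1118* animals and 7.65, 7.68 and 7.76 in *dERR* mutants (-2.60 ± 0.25, adjusted p = 8.49e-07). Glycogen synthase (*Glys*) differed by -1.51 ± 0.21, the branching enzyme gene *AGBE* by -1.44 ± 0.27 and glycogen phosphorylase (*Glyp*), which breaks glycogen down, by -1.28 ± 0.31. Trehalase, which splits the blood sugar trehalose, was the exception: *Treh* was at 8.14, 7.77, 7.72, 7.53 and 7.22 in *w1118* animals and 9.14, 8.57 and 8.49 in *dERR* mutants, and was called higher (1.06 ± 0.17, adjusted p = 0.000254). Without *w1118* replicate 1 the counts were again 4 lower and 1 higher.

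In the pentose phosphate pathway, 2 of 5 measured genes were called lower, against 4.58% of all genes. They were the ribose phosphate isomerase gene *Rpi* (-0.83 ± 0.13) and the transketolase gene *CG8036* (-0.70 ± 0.14). *Rpe* (-0.47 ± 0.10) did not reach 1.5-fold, and *Pgls* (0.14 ± 0.10) and *Taldo* (0.02 ± 0.15) were not called. Among 5 genes of gluconeogenesis, *Pepck2*, a phosphoenolpyruvate carboxykinase gene, was at 10.24, 10.84, 11.06, 11.25 and 11.36 in *w1118* animals and 7.74, 7.05 and 7.03 in *dERR* mutants (-3.68 ± 0.41, 12.8-fold, adjusted p = 7.88e-06). The other 4 were not called, with differences from -0.61 (*Pepck1*) to -0.08 (*PCB*).

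Genes of serine and one-carbon metabolism, which take up glycolytic carbon, changed in both directions. Of 10 measured, *aay* and *Nmdmc* were called lower and *Gnmt* and *pug* higher, against 4.58% and 3.16% of all genes. *aay*, encoding phosphoserine phosphatase, the last step of serine synthesis, was at 11.62, 12.19, 12.28, 12.26 and 12.11 in *w1118* animals and 8.41, 8.49 and 8.57 in *dERR* mutants (-3.60 ± 0.42, 12.1-fold, adjusted p = 1.06e-05). *Nmdmc*, encoding a mitochondrial folate enzyme, differed by -2.94 ± 0.46, and outside the list *Pfas*, encoding a purine synthesis enzyme, by -2.43 ± 0.32. *Gnmt*, whose product consumes S-adenosylmethionine by methylating glycine, was at 9.26, 6.10, 5.40, 5.27 and 7.26 in *w1118* animals and 11.89, 11.76 and 11.61 in *dERR* mutants (5.10 ± 0.75, adjusted p = 0.000145). Replicate 1 was the highest *w1118* array. The cytosolic folate gene *pug* differed by 1.22 ± 0.24. With the tissue means as covariates *aay* kept its call, while *Nmdmc* (-1.75, adjusted p = 0.0474), *Pfas* (-1.48, adjusted p = 0.0116), *Gnmt* (2.85, adjusted p = 0.0377) and *pug* (0.87, adjusted p = 0.115) lost it.

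Transcripts of several digestive enzymes were higher in *dERR* mutants. All 12 measured amylase and maltase genes had positive differences (median 1.06), and 5 were called, against 3.16% of all genes called higher. *Amyrel*, an amylase-related gene, was at 7.82, 6.97, 6.25, 7.81 and 8.22 in *w1118* animals and 9.77, 9.65 and 9.89 in *dERR* mutants (2.36 ± 0.37, adjusted p = 0.00024). The maltase genes *Mal-A3* (3.65 ± 0.81), *Mal-A4* (3.24 ± 0.55), *Mal-A2* (3.05 ± 0.59) and *Mal-B1* (1.04 ± 0.18) were the others. *Mal-A3* was at 7.89, 4.75, 4.51, 5.07 and 6.06 in *w1118* animals, with replicate 1 highest, and at 9.82, 8.78 and 9.33 in *dERR* mutants.

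Of 29 midgut digestion genes, which hold proteases, lysozymes and other gut enzymes, 11 were called higher and 1 lower (median 1.06). Over all genes 3.16% were called higher and 4.58% lower. The protease gene *Jon44E* was at 8.17, 7.54, 6.53, 6.85 and 7.74 in *w1118* animals and 11.55, 10.43 and 11.16 in *dERR* mutants (3.68 ± 0.46, adjusted p = 2.49e-05). *Jon99Fi*, a related protease gene, differed by 2.10 ± 0.25 and the trypsin genes *thetaTry*, *epsilonTry* and *etaTry* by 2.49 ± 0.44, 1.18 ± 0.20 and 1.15 ± 0.19. The lysozyme gene *LysX* went the other way. It was at 8.87, 11.46, 10.96, 11.03 and 10.81 in *w1118* animals and at 5.74, 6.81 and 6.29 in *dERR* mutants (-4.35 ± 0.44, 20.4-fold, adjusted p = 2.25e-06).

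Outside these lists, the lysosomal alpha-mannosidase genes *LManIV* (4.57 ± 0.54), *LManIII* (4.30 ± 1.07) and *LManVI* (4.12 ± 1.04), the chitinase gene *Cht9* (3.47 ± 0.46) and the lipase gene *Lip3* (2.89 ± 0.55) rose too. *LManIII* and *LManVI* lost their call in 12 of 17 settings, with differences of 0.89 and 0.30 with the covariates. The digestive transcripts moved together with the tissue lists: the 8 arrays held midgut means of 9.19 to 9.90 in *w1118* animals and 10.17 to 10.47 in *dERR* mutants. Their part in these calls was not tested, since the midgut mean is made of the same 29 genes. *Jon44E*, *Jon99Fi*, *LManIV* and *LysX* kept their call in all settings in which they were tested. Without *w1118* replicate 1, 15 midgut genes were called higher and the 5 amylase and maltase calls stood at 5. With the tissue means as covariates, 2 midgut genes were called higher and 1 lower, and no amylase or maltase gene was called. All 5 amylase and maltase genes also lost their call when the 8 compared arrays were fitted alone. In *sima* mutants in hypoxia *Jon44E* also differed from the same *w1118* arrays by 2.49 (adjusted p = 0.00096) and *Cht9* by 2.89 (adjusted p = 0.000209). *LysX* differed by 1.82 there (adjusted p = 0.00898) and *LManIV* by -0.19 (adjusted p = 0.91). Between *dERR,sima* and *sima* larvae in hypoxia no midgut gene was called higher and 3 were called lower (median -0.23).

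Some mitochondrial transcripts were higher in *dERR* mutants. Of 69 nuclear genes for subunits of oxidative phosphorylation, 64 had positive differences, 10 were called higher and none lower, with a median of 0.40. Over all genes, 5422 of 11982 had positive differences, 3.16% were called higher and 4.58% lower. *COX7C*, encoding a subunit of cytochrome oxidase, was at 11.00, 10.60, 10.52, 10.72 and 10.90 in *w1118* animals and 11.56, 11.80 and 11.69 in *dERR* mutants (0.94 ± 0.18, adjusted p = 0.00119). The other probe set for *COX7C* was not called (0.155, adjusted p = 0.869). The ATP synthase genes *ATPsynC* (0.97 ± 0.20) and *ATPsynE* (0.80 ± 0.19), the cytochrome oxidase gene *COX7B* (0.86 ± 0.19) and the complex I genes *ND-ASHI* (0.75 ± 0.17) and *ND-MLRQ* (0.60 ± 0.14) were also called. Of 18 genes of pyruvate oxidation and the TCA cycle, *mAcon1* (0.99 ± 0.22), *SdhC* (0.88 ± 0.20) and *Idh3b* (0.92 ± 0.23) were called higher and the cytosolic malate dehydrogenase gene *Mdh1* lower (-0.63 ± 0.14). None of these differences reached 1 log2 unit, and the number of calls changed with the arrays and covariates used. With *w1118* replicate 1 left out, 22 oxidative phosphorylation genes were called, and with the tissue means as covariates 1 was, at a median of 0.04. For pyruvate oxidation and the TCA cycle 6 genes were called higher and none lower without replicate 1, and limma called none with the covariates.

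One mitochondrial probe set behaved differently from the rest. *RFeSP* encodes the Rieske iron-sulfur protein of complex III. One of its probe sets was at 3.44, 3.20, 2.97, 3.18 and 3.22 in *w1118* animals, near the lower end of the scale, and at 8.02, 7.81 and 7.15 in *dERR* mutants (4.46 ± 0.28, adjusted p = 3.36e-09). The other differed by 0.81 (adjusted p = 0.0193) and was not called, so the size of the change depends on the probe set. In normoxia the first probe set differed by 4.02, and in *dERR,sima* against *sima* larvae by 0.76. It was also high in *sima* mutants in hypoxia, whose *dERR* gene is intact (3.61 against the same *w1118* arrays, adjusted p = 1.78e-08).

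Several genes of the hypoxia pathway were lower in *dERR* mutants, although *sima* itself was not. *sima* was at 7.70, 7.70, 7.62, 8.36 and 7.94 in *w1118* animals and 7.95, 8.21 and 8.02 in *dERR* mutants (0.20 ± 0.15, adjusted p = 0.393). Its DNA-binding partner *tgo* differed by -0.62 ± 0.15 (adjusted p = 0.00606). *bnl*, encoding the FGF ligand that draws out tracheal branches, was at 8.73, 9.21, 8.96, 8.93 and 8.47 in *w1118* animals and 7.10, 7.75 and 6.98 in *dERR* mutants (-1.58 ± 0.24, adjusted p = 0.000186), and its other 2 probe sets differed by -1.07 and -1.15. *Hph* (also called *fatiga*), encoding the prolyl hydroxylase that marks Sima for destruction, was at 11.35, 11.92, 11.93, 11.53 and 11.31 in *w1118* animals and 10.41, 11.09 and 10.84 in *dERR* mutants (-0.83 ± 0.17, adjusted p = 0.00234).

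*CG7737*, a spermine oxidase gene, showed the deepest fall of the list. It was at 8.04, 8.38, 8.62, 7.93 and 8.24 in *w1118* animals and 5.98, 6.01 and 5.71 in *dERR* mutants (-2.34 ± 0.20, 5.07-fold, adjusted p = 2.28e-07). *scyl*, a TOR inhibitor gene, differed by -0.72 ± 0.16, while *Vhl* (-0.54 ± 0.13) and the *bnl* receptor gene *btl* (-0.43 ± 0.20) were not called. The study classed *CG7737*, *bnl* and *Hph* as HIF-dependent partly from the same *w1118* hypoxia arrays, so these members are not independent of these data. In all, 5 of the 8 measured members were called lower and none higher (median -0.67), against 4.58% of all genes called lower. The count was 5 without *w1118* replicate 1 and 1, *CG7737*, with the tissue means as covariates. Of the 3 probe sets of the NAD synthesis gene *Nmnat*, 1 was called (-0.61, adjusted p = 0.00665).

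Genes of nutrient sensing, of the integrated stress response and of autophagy were among those called lower. Over all genes, 4.58% were called lower. In the insulin and TOR list 5 of 14 genes were called lower and none higher: *Sesn* (-1.41 ± 0.22), *InR*, the insulin receptor gene (-1.04 ± 0.22), *ImpL2*, encoding a secreted insulin-binding protein (-1.20 ± 0.27), *S6k* (-0.89 ± 0.15) and *REPTOR* (-0.76 ± 0.18). These members have opposing roles, since S6k acts downstream of active TOR while Sesn and ImpL2 hold TOR or insulin signaling back. *Sesn* was at 9.55, 10.25, 10.46, 10.46 and 10.03 in *w1118* animals and 8.54, 8.83 and 8.83 in *dERR* mutants. Of 10 genes of the ATF4 list, all had negative differences (median -0.54) and 3 were called: *Nmdmc*, *trbl*, a pseudokinase gene (-0.85 ± 0.12), and *PPP1R15*, a phosphatase regulator gene (-0.62 ± 0.08).

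All 18 autophagy genes had negative differences, as did 6560 of all 11982 genes, and the list median was -0.41. Of the 18, 6 were called, against 4.58% of all genes called lower. *Atg18a* was at 10.02, 10.36, 10.39, 10.21 and 10.18 in *w1118* animals and 9.16, 9.20 and 9.48 in *dERR* mutants. *Atg17* (-1.08 ± 0.21), *Atg1* (-0.97 ± 0.22), *Atg13* (-0.94 ± 0.20) and *Atg101* (-0.77 ± 0.15) encode the kinase complex that starts autophagy, and *Atg16* (-0.64 ± 0.13) acts in membrane growth. Without *w1118* replicate 1 the counts were 6 for insulin and TOR, 4 for ATF4 and 7 for autophagy. With the tissue means as covariates no member of the 3 lists was called, at medians of -0.25, -0.25 and -0.10.

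**Figure D3:**
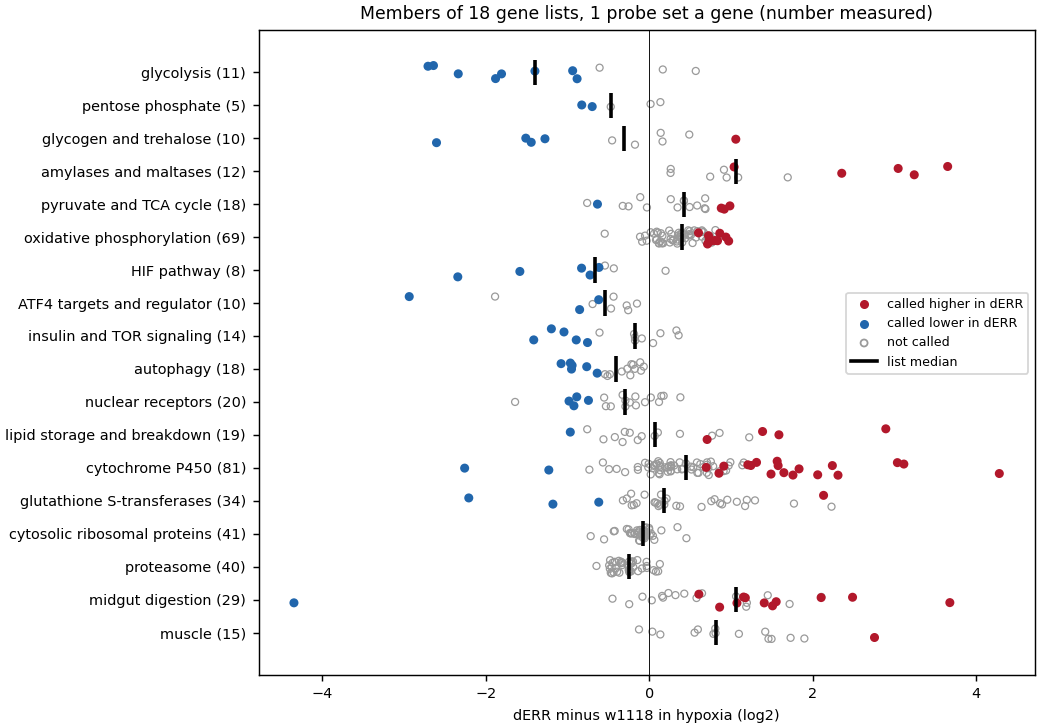
Difference between *dERR* and *w1118* larvae in hypoxia (log2, x axis) for each measured member of 18 gene lists (y axis, number measured in brackets); filled points were called, open points were not, and the bar is the list median. Glycolysis sits lowest with a median of -1.40 and 8 of 11 members called, and the amylase and maltase list and the midgut digestion list sit highest at 1.06.

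Among detoxification genes, many of the cytochrome P450 family were higher. Of 81 measured, 18 were called higher and 2 lower (median 0.45), against 3.16% and 4.58% of all genes. *Cyp6a17* was at 5.16, 5.72, 6.42, 6.97 and 6.19 in *w1118* animals and 10.40, 10.65 and 10.08 in *dERR* mutants (4.28 ± 0.32, adjusted p = 2.74e-08), and the related gene *Cyp6a23* at 10.79, 10.70, 10.42, 10.37 and 9.93 and 8.42, 7.96 and 8.16 (-2.26 ± 0.38, adjusted p = 0.00043). These close copies can share probe signal, so the split between them is uncertain. In *sima* mutants in hypoxia *Cyp6a17* differed from the same *w1118* arrays by 4.88 (adjusted p = 1.41e-09), and between *dERR,sima* and *sima* larvae by -0.27 (adjusted p = 0.866). *Cyp12d1-d* (3.12 ± 0.57), *Cyp316a1* (2.31 ± 0.31), *Cyp12c1* (1.65 ± 0.24) and *Cyp4p2* (1.21 ± 0.21) rose. Among 34 glutathione S-transferase genes 1 was called higher, *GstT3* (2.13 ± 0.20), and 3 lower, *GstE1* (-2.21 ± 0.46), *GstE7* (-1.18 ± 0.27) and *GstT1* (-0.62 ± 0.12), 11.8% of the list against 7.74% of all genes. *GstT3* differed by 1.52 between *sima* and *w1118* larvae. When *w1118* replicate 1 was left out, 24 P450 genes were called higher and 2 lower, and with the tissue means as covariates 3 and 2 were. For glutathione S-transferases the counts were 4 higher and 3 lower, and 1 higher and 0 lower.

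Immune genes changed in both directions. Over all genes 3.16% were called higher and 4.58% lower. The antifungal peptide gene *Drs* was at 13.77, 13.53, 13.65, 13.67 and 13.73 in *w1118* animals and 11.12, 12.51 and 12.33 in *dERR* mutants (-1.69 ± 0.43, adjusted p = 0.00952), and its relative *Drsl2* at 9.58, 10.55, 10.89, 10.42 and 10.32 and 4.73, 6.03 and 6.80 (-4.50 ± 0.78, adjusted p = 0.000559). The antibacterial peptide genes *DptB* (3.36 ± 0.66) and *AttD* (2.64 ± 0.48) were higher, so that 2 of 13 antimicrobial peptide genes rose and 2 fell. Of 9 Bomanin genes, which encode short secreted immune peptides, *BomS2* (-3.35 ± 0.76) and *BomT2* (-3.02 ± 0.66) fell and *BomBc3* (1.31 ± 0.26) rose. *BomS2* varied widely, at 11.02, 8.23, 10.12, 7.51 and 8.46 in *w1118* animals and 4.97, 6.71 and 5.46 in *dERR* mutants. In normoxia the difference was in the other direction for *BomS2* (2.34) and *BomT2* (1.70), and the interaction with oxygen was not called for either (adjusted p = 0.0263 and 0.0357). *Drs* lost its call without *w1118* replicate 1 (-1.66, adjusted p = 0.0123), and all 7 of these genes lost it with the tissue means as covariates. The differences in that model were 3.75 for *DptB*, -3.28 for *BomS2* and -2.58 for *BomT2*, and -2.36 for *Drsl2*.

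In lipid metabolism 4 of 19 genes were called higher and 1 lower, against 3.16% and 4.58% of all genes. Fatty acid synthase (*FASN1*, 1.39 ± 0.35), the lipase *Lip3*, the acyl-CoA oxidase *Acox57D-p* (1.59 ± 0.26) and the glycerol phosphate acyltransferase *mino* (0.71 ± 0.17) were higher. *whd*, encoding the carnitine palmitoyltransferase that admits fatty acids to mitochondria, was at 10.32, 10.44, 10.31, 10.33 and 10.76 in *w1118* animals and 9.85, 9.31 and 9.25 in *dERR* mutants (-0.97 ± 0.17, adjusted p = 0.000748), although the other probe set of *whd* gave a difference near 0 (-0.00, adjusted p = 0.995). Without *w1118* replicate 1, 5 genes of this list were called higher and 1 lower, and with the tissue means as covariates none was by limma (median 0.03). Of 20 nuclear receptor genes 4 were called lower and none higher: *ERR* itself, *svp* (-0.92 ± 0.16), *kni* (-0.98 ± 0.22) and *knrl* (-0.74 ± 0.16). For *svp* this was 1 of 3 probe sets. The neuronal gene *elav* differed by -0.74 ± 0.15. Of these 5 genes only *ERR* kept its call with the covariates.

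Many other groups showed no called member. In the lists of 18 aminoacyl-tRNA synthetases, 41 cytosolic and 69 mitochondrial ribosomal proteins, 40 proteasome subunits, 12 antioxidant enzymes, 13 ecdysone synthesis genes, 12 replication licensing genes and 8 genes with an *Sgs* symbol, nearly all for salivary gland glue, none was called by limma. At an unadjusted p below 0.05 these lists held 6, 10, 24, 9, 3, 2, 1 and 1 genes in that order, and SAM, the permutation test used in the study, called none of them. The list medians ran from -0.25 for the proteasome to 0.11 for mitochondrial ribosomal proteins. The proteasome and cytosolic ribosomal protein lists still leaned one way, with 36 of 40 and 34 of 41 differences negative. Over all genes 6560 of 11982 were negative. The remaining lists held few calls, where 7.74% of all genes were called. In polyamine metabolism, *Odc1*, the ornithine decarboxylase gene (-1.97 ± 0.40), fell together with *CG7737*, 2 of 6 measured. The heat shock factor gene *Hsf* (-0.99 ± 0.20) was the only one of 10 chaperone genes called, and the endoplasmic reticulum genes *Ero1L* (-0.77 ± 0.16) and *Ire1* (-0.66 ± 0.13, 1 of 2 probe sets) fell among 12. Of 19 ecdysone response genes *Cth* (1.29 ± 0.18) was called higher and *ImpL2* lower, 10.5% of the list. In the tissue lists the muscle gene *Mlc2* (2.76 ± 0.56) and the fat body gene *Mtp* (1.38 ± 0.24) were the only members called of 15 and 7. The muscle list still leaned one way, with 14 of 15 differences positive (median 0.81). It held 12 genes at an unadjusted p below 0.05, and SAM called 7. Without *w1118* replicate 1, 10 muscle genes were called higher. *Odc1*, *Hsf*, *Ero1L*, *Ire1*, *Cth*, *Mlc2* and *Mtp* lost their call with the covariates, which include the muscle genes themselves. No list left unnamed here held more than 3 calls in either direction.

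The 20 largest rises and the 20 largest falls held genes of several other kinds. Among the 20 largest rises, *lectin-24A*, a C-type lectin gene, was at 5.94, 3.10, 3.18, 3.24 and 3.16 in *w1118* animals and 8.69, 12.25 and 8.42 in *dERR* mutants (6.06 ± 1.11, adjusted p = 0.000886). The neuropeptide-like precursor gene *Nplp2* was at 11.23, 7.56, 5.98, 7.42 and 8.11 and 13.16, 12.91 and 12.87 (4.92 ± 1.15, adjusted p = 0.0055), and *CG4716* and *CG31089* differed by 4.87 ± 0.76 and 4.63 ± 0.67. In all 4 genes *w1118* replicate 1 was the highest control, and with the covariates *lectin-24A* (3.56), *Nplp2* (0.81) and *CG4716* (3.04) lost their call. *CG18265* did not share this feature. It was at 3.16, 3.35, 3.33, 3.81 and 3.06 in *w1118* animals and 7.07, 6.55 and 6.93 in *dERR* mutants, with the smallest standard error of the 20 (3.51 ± 0.18, adjusted p = 7.25e-11).

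Among the 20 largest falls, *CG11893* was at 8.61, 11.23, 10.54, 11.86 and 11.44 in *w1118* animals and 5.09, 7.47 and 5.14 in *dERR* mutants (-4.83 ± 0.64, adjusted p = 4.64e-05). *mthl8*, a methuselah-like receptor gene, was at 6.57, 7.83, 7.48, 7.96 and 7.86 and 4.60, 3.08 and 3.25 (-3.90 ± 0.33, adjusted p = 2.05e-07). *CG33474* (-4.45 ± 0.64), *CG5966* (-4.20 ± 0.65), *CG3348* (-3.57 ± 0.56), *CG8679* (-3.23 ± 0.58), *CG11825* (-2.98 ± 0.53), the nucleotidase gene *NT5E-2* (-2.78 ± 0.27) and the alkaline phosphatase gene *Alp8* (-2.50 ± 0.36) were further members. With the covariates *CG33474*, *CG5966*, *CG3348*, *CG8679* and *CG11825* lost their call. *NT5E-2* and *mthl8* kept theirs in every setting in which they were tested. *NT5E-2* was also low in *sima* mutants in hypoxia (-2.75 against the same *w1118* arrays, adjusted p = 4.93e-07) and differed by 0.60 between *dERR,sima* and *sima* larvae (adjusted p = 0.414), whereas *mthl8* differed by 0.19 (adjusted p = 0.837) and -4.05 (adjusted p = 6.01e-07). In the same 2 comparisons *CG11893* differed by 1.76 (adjusted p = 0.0809) and -0.47 (adjusted p = 0.892), neither called.

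Part of the difference was already present in normoxia. The normoxic comparison shares no array with the hypoxic one and called 429 probe sets (278 higher, 151 lower), 2.29% of those tested, with 1.48% higher and 0.805% lower. After each array was centred on its median, 292 were higher and 82 lower. This count fell to 138 without *dERR* normoxia replicate 2 and to 215, 150 and 193 without *w1118* normoxia replicates 1, 2 and 3. Of the 450 probe sets higher in hypoxia 118 were also called higher in normoxia, which is 26.2% of the hypoxic and 42.4% of the normoxic list. Of the 707 lower, 93 were shared, 13.2% of the hypoxic and 61.6% of the normoxic list. None was called in opposite directions. By sign, 96.0% of the hypoxic higher set were above 0 in normoxia, against 53.4% of all probe sets, and 90.7% of the lower set were below 0, against 46.6%. In normoxia 6 glycolytic genes were called lower (list median -0.91). *Pgi* differed by -1.36 there, *Pfk* by -1.20 and *Tpi* by -1.74, while *Hex-A* differed by 0.07 and *Glys* by -0.29, neither called.

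Whether the genotype difference itself changed with oxygen was tested by the interaction term, which called 20 probe sets, 0.107% of those tested, 18 lower (0.0959%) and 2 higher (0.0107%). At an adjusted p below 0.05 with the same fold, the interaction called 76. Hypoxia itself changed 966 probe sets in *w1118* animals (5.15%), of which 672 rose (3.58%) and 294 fell (1.57%), on 5 hypoxia and 3 normoxia arrays. In *dERR* mutants, on 3 arrays of each, it changed 73 (0.389%), 37 upward (0.197%) and 36 downward (0.192%), and these counts come from unequal numbers of arrays. All 18 probe sets with a negative interaction had higher means in hypoxia than in normoxia in *w1118* animals, and 1 of the 20 was called for hypoxia within *dERR* mutants. *CG7737* was at 5.01, 5.34 and 5.13 in *w1118* animals and 5.07, 6.16 and 5.43 in *dERR* mutants in normoxia, rose by 3.08 in *w1118* animals in hypoxia and differed by 0.35 in *dERR* mutants, and its interaction was -2.74 (adjusted p = 0.000239). *CG33969* rose by 3.16 in *w1118* animals and differed by 0.45 in *dERR* mutants, with an interaction of -2.70 (adjusted p = 0.00245).

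*Alas*, encoding the first enzyme of heme synthesis, was at 8.48, 8.45 and 8.47 in *w1118* animals and 8.98, 9.22 and 8.67 in *dERR* mutants in normoxia. In hypoxia it was at 10.48, 10.32, 10.57, 10.32 and 10.30 and 9.43, 9.27 and 9.35, and the interaction was -1.54 (adjusted p = 0.00113). *dERR* arrays were thus above all *w1118* arrays in normoxia and below all of them in hypoxia. None of the other 6 measured heme synthesis genes was called in hypoxia, with differences from -0.16 to 0.15. The probe set the study assigns to *Cpr*, encoding the reductase that feeds electrons to P450 enzymes, had an interaction of -1.54 (adjusted p = 0.00193). *trbl* (-1.26, adjusted p = 0.00225), *CG31706* (-1.84, adjusted p = 0.00179) and *CG3808* (-1.90, adjusted p = 0.00615) were called too. *CG10433*, named after its values were seen, had an interaction of -1.85 (adjusted p = 0.00225) from another pattern: it was called higher in *dERR* mutants in normoxia (1.35, adjusted p = 0.000419) and was not called in hypoxia (-0.51, adjusted p = 0.0551).

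The 2 positive interactions were *Lst* and *CG4783*. *Lst* encodes limostatin, a peptide hormone that restrains insulin release. It fell in *w1118* animals by 1.35 in hypoxia and differed by 0.06 between the conditions in *dERR* mutants (interaction 1.41, adjusted p = 0.00559). For *CG4783* the changes were -0.88 and 1.00 (interaction 1.88, adjusted p = 0.00559). No glycolytic gene passed the interaction test, the nearest being *Pfk* (-1.44, adjusted p = 0.0278). *Pfk* was called neither lower nor higher in *dERR* mutants between normoxia and hypoxia (-0.39), while in *w1118* animals it differed by 1.05. The count of 20 fell to 6 without *dERR* hypoxia replicate 3 and to 10 without *w1118* hypoxia replicate 3. It fell to 10, 11 and 6 without *w1118* normoxia replicates 1, 2 and 3 and to 9 without *dERR* normoxia replicate 1. With the tissue means as covariates 8 probe sets were called, 5 higher and 3 lower, and only 4 of these were among the 20.

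**Figure D4:**
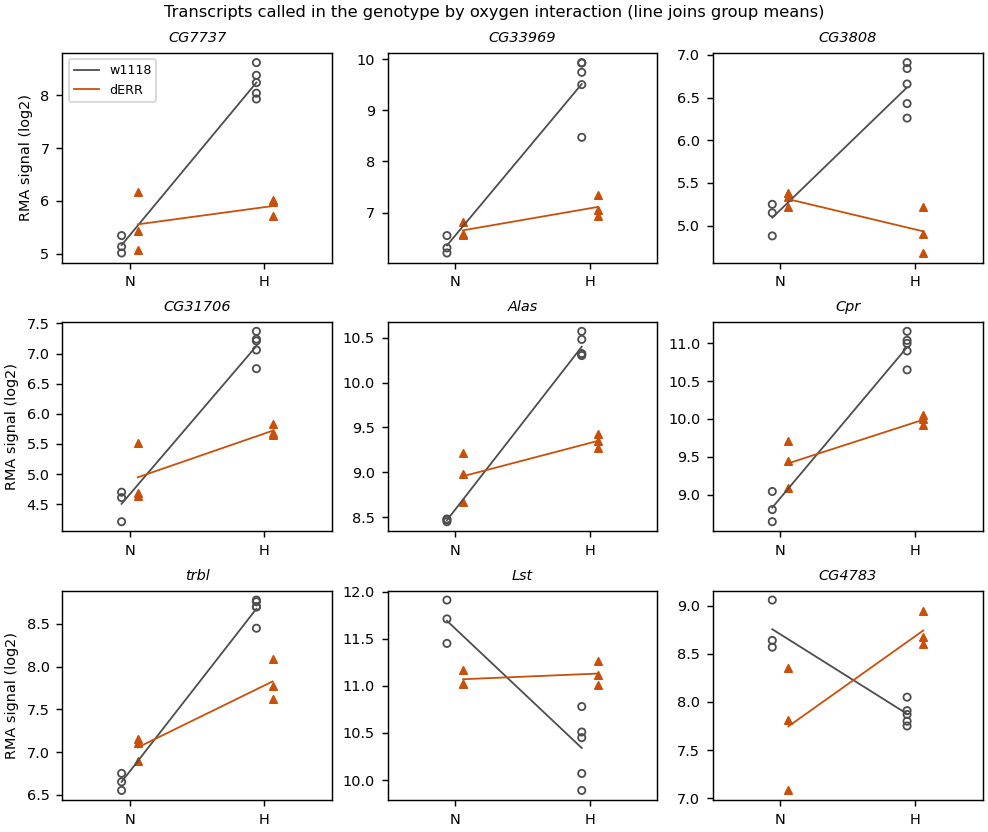
RMA signal (log2, y axis, own range in each panel) of 9 transcripts called in the genotype by oxygen interaction, in normoxia (N) and hypoxia (H), for *w1118* (open circles) and *dERR* (triangles), with lines joining group means. *CG7737* reaches 7.93 to 8.62 in the 5 *w1118* hypoxia arrays and 5.71 to 6.01 in the 3 *dERR* hypoxia arrays.

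The effect of the *dERR* mutations was also measured in hypoxic larvae that lack normal *sima* function, on arrays that the first comparison does not use. Between *dERR,sima* and *sima* larvae 195 probe sets were called, 1.04% of those tested, 90 higher (0.48%) and 105 lower (0.559%), and 123 without *dERR,sima* replicate 1. Of these, 29 were shared with the 450 higher in *dERR* mutants (6.44% of that list and 32.2% of the other) and 41 with the 707 lower (5.80% and 39.0%), while 11 were called in opposite directions. Of the glycolytic genes 7 were called lower, with a list median of -1.45. *Pfk* differed by -2.72, *Pgi* by -2.46, *Pgk* by -1.86 and *Glys* by -2.02. The oxidative phosphorylation list, in contrast, had no member called by limma (median 0.14; 3 at an unadjusted p below 0.05, none by SAM), and the amylase and maltase list had none either (median 0.02; 1 at an unadjusted p below 0.05, none by SAM).

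Members of the hypoxia pathway list were not called by limma in the *sima* background (median -0.06; 0 of 8 at an unadjusted p below 0.05 and none by SAM), where *CG7737* differed by -0.02 and *bnl* by 0.14. *CG7737* averaged 5.15 in *sima* larvae in normoxia, 5.27 in *sima* larvae in hypoxia and 5.26 in *dERR,sima* larvae in hypoxia. As it did not rise in *sima* larvae, this comparison could not show a smaller rise. In all, 28 probe sets of 1157 were called in the same direction in hypoxia, in normoxia and in the *sima* background, 16 lower and 12 higher. Among the lower were *Pgi*, *Pfk*, *Pgm1*, *Pgk*, *Eno*, *Gapdh1*, *Gapdh2*, *LysX*, *CG5966* and *mthl8*, and among the higher were *CG18265* (3.51, 4.16 and 4.47) and *CG1208* (3.40, 3.94 and 3.33). *LysX* differed by -4.35, -4.92 and -5.67.

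**Figure D5:**
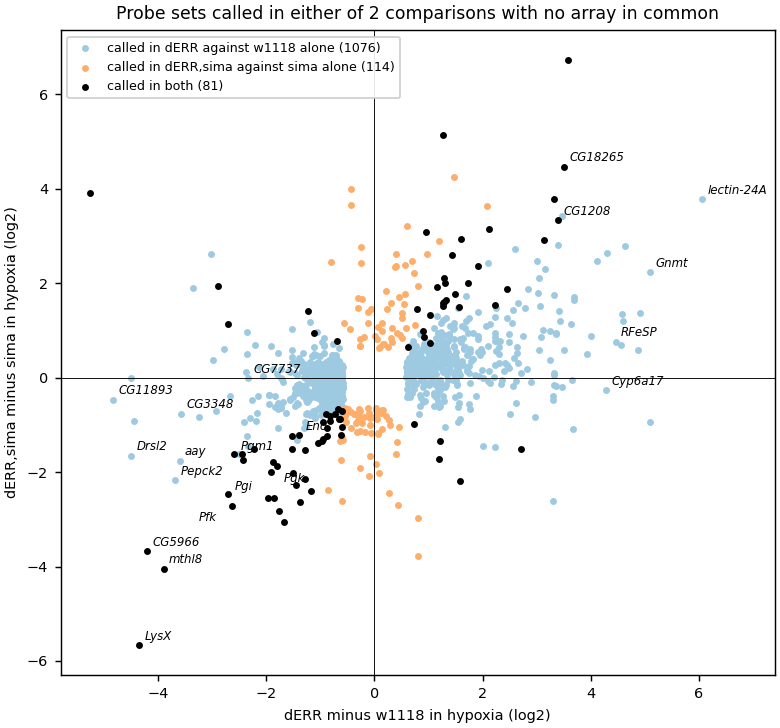
Difference between *dERR* and *w1118* larvae in hypoxia (log2, x axis) against that between *dERR,sima* and *sima* larvae in hypoxia (log2, y axis) for probe sets called in either; the comparisons share no array. Pale blue marks 1076 called in the first alone, orange 114 in the second alone and black 81 in both, 70 of them in the same direction.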

How the data were processed

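RNA from pools of whole larvae was hybridised by the authors to Affymetrix Drosophila Genome 2.0 arrays and summarised by RMA. The deposited values are RMA intensities on the linear scale for 18952 probe sets on 26 arrays, and how the arrays were grouped for RMA is not given in the sources used here. Log2 was taken, and 183 control probe sets were left out. Of 18769 tested, 13647 had 1 gene in the platform table, 402 several and 4720 none; symbols were updated through RefSeq (Release 6), where 103 gene numbers were not found. limma 3.58.1 in R 4.3.3 fitted 1 model with a mean for each of 8 groups, with Benjamini-Hochberg adjustment over all probe sets. Named genes were the 20 largest non-overlapping rises and falls, the 5 largest interactions each way among genes also called in hypoxia, up to 6 called members of each of 47 lists (whole for glycolysis, pentose phosphate and lists of 8 or fewer) and genes the study followed by PCR. Members and lists were chosen with earlier results of these data known. Alternatives were array centring, array weights, a filter on dim probe sets, tissue means as covariates, the replicate block, SAM and leaving out arrays. limma and SAM were tested on simulated data. Promoter sequences were not analysed here.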

Additional observations from a re-analysis of the deposited data

Results flagged for a closer look

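Among 134 genes named here, 24 had 1 *w1118* hypoxia array far from the other 4 by Dixon's criterion for a gap relative to the group's range. This is 17.9%, where chance flags about 1 group in 20 for independent genes. The share over all probe sets was not computed and the named genes are not independent draws. The excess is therefore not read as a trait of the named genes. In 20 of the 24 the distant array was replicate 1, as the highest array in 13 and the lowest in 7.

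It was high for *Ald1* (12.15), *Gapdh1* (12.61), *PyK* (11.00), *Pgm1* (11.27), *Glyp* (11.63), *epsilonTry* (12.61), *LManIV* (4.99), *SdhC* (9.73), *Mdh1* (12.90), *Cyp316a1* (4.00), *Mlc2* (8.14), *lectin-24A* (5.94) and *CG31089* (6.75). It was low for *aay* (11.62), *trbl* (8.45), *ImpL2* (11.08), *LysX* (8.87), *CG3348* (11.27), *CG8679* (5.43) and *Hsf* (9.24). The other 4 were *btl* in replicate 4 (5.22) and *InR* (7.96), *Mal-B1* (4.27) and *whd* (10.76) in replicate 5.

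The difference between genotypes itself differed between hypoxia and normoxia, by the limma interaction term, for *CG7737* (-2.74), *CG33969* (-2.70), *CG3808* (-1.90), *CG31706* (-1.84), *Alas* (-1.54), *Cpr* (-1.54), *trbl* (-1.26), *Lst* (1.41) and *CG4783* (1.88).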

How the results depend on the processing

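The 1157 calls in hypoxia became 200 when only the 8 arrays of the comparison were fitted, 537 when *w1118* hypoxia replicates 2 and 3, and 4 and 5, were averaged, 171 with muscle, midgut and testis means as covariates and 1838 at an adjusted p below 0.05. They ranged from 526 to 1821 with 1 array left out. The 429 calls in normoxia became 996 with array weights (whose estimate stopped before convergence), 1272 at an adjusted p below 0.05 and 13 by SAM, where 3 arrays a group allow 20 permutations, and ranged from 138 to 481 with 1 array left out. The 20 interaction calls became 81 with array weights, 35 with the testis mean as covariate and 76 at an adjusted p below 0.05. With the 3 means as covariates they became 8, only 4 of them among the 20, and with 1 array left out 6 to 28. The 195 calls of *dERR,sima* against *sima* became 358 at an adjusted p below 0.05 and ranged from 123 to 169 with 1 array left out, a choice made after the data were seen for the last 3 comparisons. *ERR* kept its call in every setting in which it was tested, from -1.02 to -0.78. Centring each array on its median moved the split in hypoxia from 450 higher and 707 lower to 298 and 555, and in normoxia from 278 and 151 to 292 and 82. SAM called 1455 in hypoxia, 1088 of them shared.

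With the replicate number as a block, the counts were 863, 471, 24 and 202 for the 4 comparisons and *ERR* differed by -0.88; in hypoxia 670 calls were shared with the model without the block. Same-numbered *w1118* and *dERR* hypoxia arrays deviated from their group means with correlations of 0.09, -0.28 and -0.12, so the numbers were not read as pairs.

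Of 123 other genes named here and called, 28 kept the call in every one of 17 settings in which they were tested and none reversed. Genes that were not called did change sign. *Taldo* was at -0.00 with array centring, -0.01 with averaged replicates, -0.06 with the 3 covariates and from -0.10 to 0.12 with 1 array left out. *Pglym87* was at -0.16 with array weights, -0.17 with the block, -0.17 with *w1118* hypoxia replicates 1 to 3 alone and from -0.03 to 0.33 with 1 array left out. *Pgls* was at -0.03 with the 3 covariates.

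Signal limits the dimmest transcripts: a filter at a mean log2 of 6 removed *ERR* and 21 of the called genes, leaving 102, which all kept their call.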
